A study of Mus musculus with 4 samples.

Results

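Methylation in CD4+CD25- effector T cells (Teff) of OX40L-JAG1 mice was compared with that in Teff of PBS mice, in 959306 windows of 1 kb. The windows were fixed, non-overlapping stretches of the mouse genome. A window was used when it held at least 5 cytosine positions that had at least 5 reads each in both Teff libraries, whatever the reads of the Treg libraries. Of the 25374149 positions in the deposited table, 10466950 (41.3%) met the read minimum, and 7376210 of these lay in the windows. The windows covered 959.3 Mb. Of them, 314517 could also be measured in all 4 libraries of the study, and 644789 could not.

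All mice were of the NOD strain, which develops autoimmune diabetes without induction. Dosing started at 6 weeks of age and was given weekly for 3 weeks, with PBS alone or with the proteins OX40L and Jagged-1 (JAG1). Spleen cells were sorted by flow cytometry 1 week after the last dose, and the stated age was 10 weeks. The groups used here were PBS Teff, OX40L-JAG1 Teff and, beside them, PBS Treg and OX40L-JAG1 Treg, the CD4+CD25hi cells of the same design, with 1 library each. The number of animals behind a library, and whether cells were pooled, are not given in the sources used here. Levels given as after PBS and after OX40L-JAG1 are those of the Teff libraries unless Treg is named. With 1 library per side, every difference below is a difference between libraries, and its reproducibility across animals was not measured.

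OX40 is a costimulatory receptor of activated T cells, which signals through TRAF adaptors to NF-kB and favours survival. JAG1 is a ligand of Notch receptors, whose cleaved intracellular part joins RBPJ and Mastermind proteins on DNA. Cytosine methylation in T cells is high across most of the genome and low at active promoters and enhancers. Naive T cells keep regulatory regions of genes such as Tcf7, Lef1 and Satb1 unmethylated, and effector and memory cells lose methylation at genes such as Prdm1, Tbx21 and the cytokine genes. The CD4+CD25- gate holds naive, effector and memory cells together, so a change in their proportions and a change within cells cannot be told apart in these bulk libraries.

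Promoters that differed are shown first, since they are the regions of the comparison for which sequence was at hand. The sequences are the 250 bases before the annotated start, from RefSeq (GRCm38.p6, the assembly that mm10 names), 5′ to 3′ on the strand of the gene. Capitals mark each CpG base, on either strand, that was measured in both Teff libraries. Las1l, a ribosome biogenesis gene on the X chromosome, lost methylation over its promoter. Mab21l2, a developmental gene, and Coq10a, a gene of coenzyme Q metabolism, gained it. Ifng, which encodes interferon gamma, is shown as the promoter of an effector cytokine gene and was not called.
Las1l, chrX:95956904-95957153, minus strand: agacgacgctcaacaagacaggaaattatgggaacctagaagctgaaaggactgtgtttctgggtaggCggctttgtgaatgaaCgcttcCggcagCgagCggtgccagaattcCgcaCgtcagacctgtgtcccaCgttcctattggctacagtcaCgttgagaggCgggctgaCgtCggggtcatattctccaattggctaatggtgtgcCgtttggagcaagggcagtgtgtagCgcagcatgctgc
Mab21l2, chr3:86548284-86548533, minus strand: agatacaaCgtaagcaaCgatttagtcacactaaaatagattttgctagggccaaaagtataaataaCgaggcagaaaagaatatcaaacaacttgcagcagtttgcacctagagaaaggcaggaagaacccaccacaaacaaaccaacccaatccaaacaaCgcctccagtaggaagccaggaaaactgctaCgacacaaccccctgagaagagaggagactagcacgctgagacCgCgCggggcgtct
Coq10a, chr10:128370038-128370287, minus strand: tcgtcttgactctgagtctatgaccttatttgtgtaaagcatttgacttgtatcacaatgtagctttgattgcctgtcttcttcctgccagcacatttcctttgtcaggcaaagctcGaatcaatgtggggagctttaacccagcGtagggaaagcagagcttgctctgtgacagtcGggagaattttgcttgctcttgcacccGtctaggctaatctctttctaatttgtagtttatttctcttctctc
Ifng, chr10:118440796-118441045, plus strand: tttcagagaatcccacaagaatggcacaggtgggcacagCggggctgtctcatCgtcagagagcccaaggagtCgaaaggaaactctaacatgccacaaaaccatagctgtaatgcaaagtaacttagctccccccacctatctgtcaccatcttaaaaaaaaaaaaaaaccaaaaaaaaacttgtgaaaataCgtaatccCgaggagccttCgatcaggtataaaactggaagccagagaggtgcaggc
Over the 14 measured bases of Las1l, 63.8% of 116 reads were methylated after PBS and 12.2% of 82 reads after OX40L-JAG1. Over the 8 bases of Mab21l2, the level was 22.2% of 63 reads after PBS and 61.4% of 83 reads after OX40L-JAG1. Over the 4 bases of Coq10a, it was 17.2% of 58 reads and 62.5% of 32 reads. Over the 6 bases of Ifng, it was 11.1% of 45 reads and 31.6% of 57 reads. In Las1l every measured base was lower in the OX40L-JAG1 library, and in Mab21l2 and Coq10a every one was higher. Each base had between 5 and 18 reads in a library, and neighbouring bases can share reads, so the sums count fewer DNA molecules than reads.

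Promoter regions of 300 bases, which add the first 50 bases after the start, had at least 5 measured positions in 2869 cases. Their median level was 6.02% after PBS and 6.25% after OX40L-JAG1, and their median difference was 0. The two-sided Fisher's exact test compared the methylated share of reads between the libraries, with Benjamini-Hochberg adjustment over all promoters. A promoter was called where the adjusted p was below 0.05 and the levels were 20 or more percentage points apart. At 1568 promoters the level was 10% or less after PBS, which left no room for a lower call. Of all 2869 promoters, 4 were called lower (0.139%) and 8 higher (0.279%). The 118 promoters of the X chromosome gave 6 of these calls, 5.08% of them, while the 2751 autosomal promoters gave the other 6, or 0.218%. The lower autosomal calls were Tmem267 and a gene model on chromosome 13 whose promoters overlap and share positions, so they are not separate calls. X-linked promoters were at levels between 20% and 80% in PBS Teff in 59.3% of cases, against 14.2% of the autosomal ones. Promoters lower on the X were Las1l (adjusted p = 7.80e-11, Fisher's exact test) and Bcorl1, a corepressor gene, at 42.1% after PBS and 20.6% after OX40L-JAG1. Higher on the X were Rbmx, Nkrf, Esx1 and Suv39h1, with Nkrf at 11.1% and 58.3%. In female cells the copies of many X-linked promoters differ in methylation, as the parental copies of imprinted ones do. Whether differences between copies bear on the calls here was not tested. Ndn, an imprinted gene, was among the higher promoters, at 22.1% of 95 reads after PBS and 52.0% of 75 reads after OX40L-JAG1. In the Treg libraries Coq10a, which has 1 other annotated start, went the other way, at 73.5% of 34 reads after PBS and 59.4% of 32 after OX40L-JAG1. Mab21l2 was at 47.4% of 38 reads in PBS Treg and 57.6% of 33 in OX40L-JAG1 Treg, and Las1l was not measured there.

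The OX40L-JAG1 Teff library was less methylated than the PBS Teff library over most of the genome. Pooled over the kept positions, 84.9% of 159069448 reads were methylated after PBS and 81.4% of 132144245 after OX40L-JAG1. The difference was -3.57 percentage points, with a 95% Newcombe interval of -3.58 to -3.56 that covers counting error only. The median window fell from 90.6% to 86.5%, and the median of the window differences was -2.96 points. The middle 50% of differences ran from -7.06 to 0.406 points, and 71.5% of windows lay below 0. Positions at which every read was methylated made up 45.4% after PBS and 40.3% after OX40L-JAG1, whereas positions at or below 20% rose from 5.72% to 6.24%. The share of methylated reads on the mitochondrial genome, which is largely unmethylated, was 0.697% (95% Wilson interval 0.653 to 0.743) after PBS and 0.712% (0.658 to 0.770) after OX40L-JAG1. The median window rested on 76 reads after PBS and 65 after OX40L-JAG1, a read being counted again at every position it spans.

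The shift was present in every chromosome and every large region measured. Chromosome medians ran from -3.17 to -2.56 points on the autosomes, and the X chromosome stood at -3.85. Of 2542 regions of 1 Mb with at least 100 windows, all 2542 had a median below 0, from -5.70 to -0.216 points. Gene-poor regions fell further. The 626 regions in which 1 to 4 genes start had a median of -3.97 points, and the 584 regions with 15 to 29 starts had one of -2.11. The region farthest down, chr12:96000001-97000000, held no gene start and had a median of -5.70 points over 427 windows. The region nearest 0, chr10:81000001-82000000, held 50 gene starts and had a median of -0.216 points over 216 windows.

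Distance to a gene start gave the same order. Windows within 0.5 kb of a start had a median difference of -1.18 points, those at 10 to 50 kb one of -2.58, and those beyond 500 kb one of -3.97. Median PBS Teff levels in these classes were 59.9%, 91.7% and 88.6%. The shift also varied with the level in PBS Treg. Windows up to 20% had a median difference of 0.0460 points, and those at 20 to 40% one of -0.875. It was -2.57 at 40 to 60%, -4.17 at 60 to 80%, -4.16 at 80 to 90%, -3.04 at 90 to 95% and -1.68 at 95 to 100%. Whether distance or level goes with the order was not tested. Windows dense in measured positions shifted less, from -3.45 points with 5 positions to -1.10 with more than 20. Depth made little difference to the shift: medians of windows grouped by reads ran between -3.08 and -2.80 points.

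**Figure D1:**
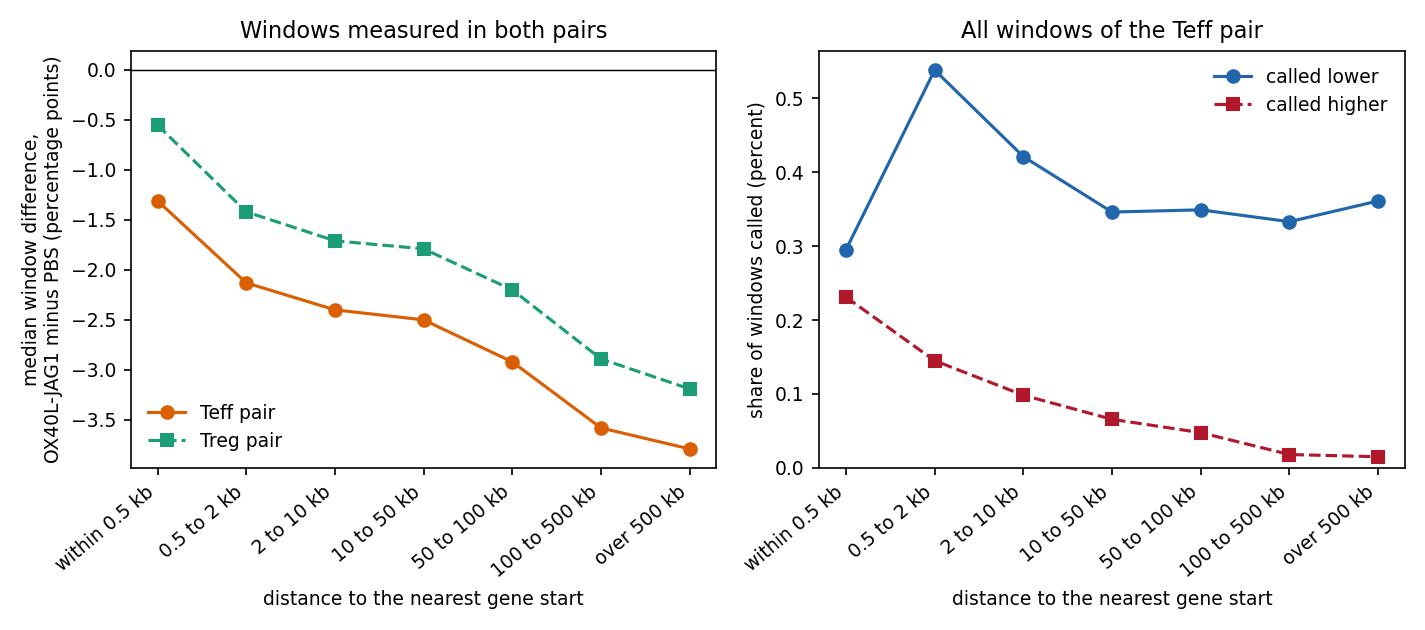
Left, median difference in methylation (OX40L-JAG1 minus PBS, percentage points) against distance to the nearest gene start, for windows measured in both pairs, with the Teff pair as circles and the Treg pair as squares. Right, percent of all Teff windows called lower (circles) or higher (squares) in the same classes. Both pairs lie farther below 0 away from gene starts, and the share called higher falls from 0.231% to 0.0151% while the share called lower stays between 0.295% and 0.538%.

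The Treg libraries showed the same broad shift in the same regions. The Treg pair shares no library with the Teff pair. In the 391982 windows measured in both pairs, the median difference was -2.87 points in Teff and -2.17 in Treg. Across 2527 regions of 1 Mb the medians of the pairs followed each other, with a Pearson correlation of 0.822 and a Spearman correlation of 0.833. This is a description over neighbouring regions, which share gene content, base composition and the processing of each library. Regions with no gene start stood at -3.86 points in Teff and -2.99 in Treg, and those with 15 to 29 starts at -2.11 and -1.35. Treatment is not separated from the making of the libraries in this design, so a difference between the PBS libraries and the OX40L-JAG1 libraries from either source cannot be told apart.

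**Figure D2:**
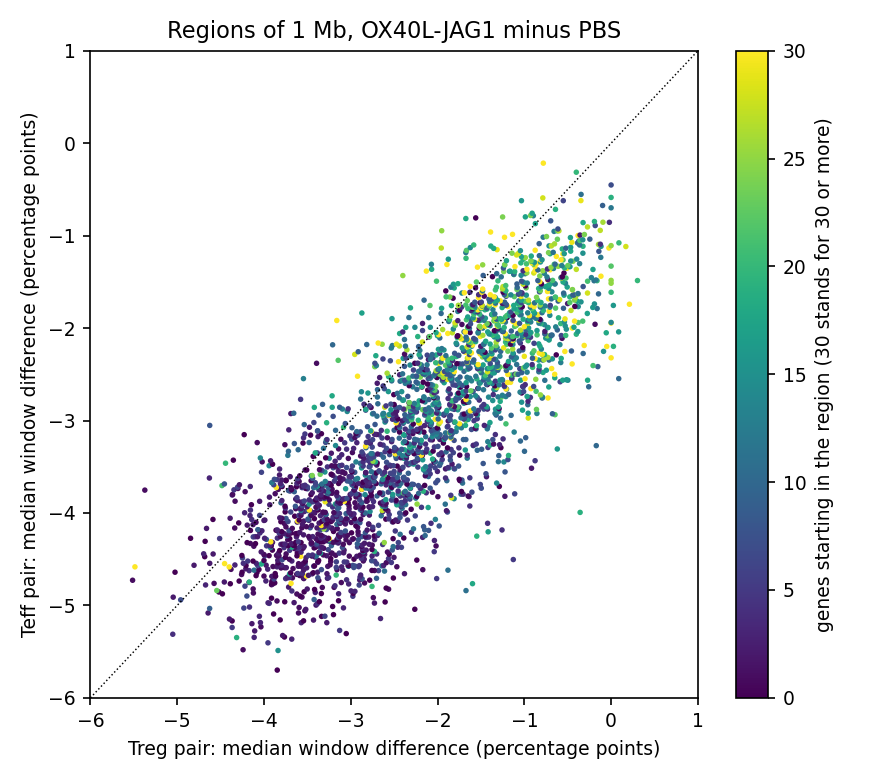
Median window difference (OX40L-JAG1 minus PBS, percentage points) of 2527 regions of 1 Mb, with the Treg pair on the horizontal axis, the Teff pair on the vertical axis and the number of gene starts as colour. Each point is a region, the dotted line marks equal differences, and regions with few gene starts gather at the lower left.

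Single windows were called with the same rule as promoters, adjusted over the 959306 windows. OX40L-JAG1 Teff was lower in 3472 windows (0.362%) and higher in 544 (0.0567%), so 86.5% of the calls were lower. With the median difference of -2.96 points subtracted before the size threshold, 2576 windows were lower (0.269%) and 638 higher (0.0665%), and 80.1% were lower. A window near full methylation after PBS has no room to be called higher, and the median window stood at 90.6%. The excess of lower calls is therefore in part set by level. After centring, windows at 20 to 40% in PBS Treg gave 79 lower and 74 higher calls, and those at 80 to 90% gave 246 and 35. Lower windows had a median level of 89.8% after PBS and 61.0% after OX40L-JAG1. Higher windows had medians of 28.6% and 61.0%. These levels describe the choice and are no test. Among lower windows, 303 fell by 40 points or more, and among higher ones 73 rose by as much. Just inside the threshold, 1372 lower and 146 higher windows differed by 20 to 25 points, and just outside it 2115 and 133 windows past the adjusted p differed by 15 to 20 points. Of the calls, 2294 lower and 294 higher windows lay outside the windows measured in all 4 libraries.

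The test counts a read once at each position, and reads at neighbouring positions are not independent, so its p-values are too small. When the first kept position in each 200 bases was used, with a median of 3 positions in a window, 628 windows were called lower and 69 higher. Of the 3472 lower and 544 higher windows, 336 and 55 were among these. The spaced positions are a subset of the reads that chose the windows, so the sign of their difference there is no separate evidence. Dividing all read counts by 3 before the test left 50 lower and 14 higher windows. A call of 1 gene in the following paragraphs is therefore a lead on read counts, and the genes whose printed windows kept the call with spaced positions are named. With windows moved by 500 bases, the window looked up held the first 500 bases of a printed window and the 500 bases before it. There the sign was the other way at Cblb, Cd28, Clhc1, Runx2, Tet2, Tigit, the higher Bach2 window and the higher Ikzf2 window. The rest of each printed window was not looked up in this setting. In 2-kb windows the sign turned at Maml3. After centring, the printed windows of Ahr, Bcl11b, Cd83, Malt1, Rbpj and Rnf128 were no longer called, and Themis had 2 lower windows in place of 5.

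Higher windows were more frequent in genes than away from them, and lower windows were about as frequent in both. Windows in a gene were called higher in 0.0840% of cases and windows more than 5 kb from any gene in 0.0190%, whereas the shares called lower were 0.372% and 0.347%. Most calls stood alone. Runs of called windows, joined over gaps of up to 2 kb between window starts, held 178 lower and 35 higher windows. The longest lower run covered 5 windows in Morrbid. Of the 11 lower runs of 3 or more windows, 5 lay in no gene, and others lay at Mir155hg, the host gene of miR-155 (median 91.5% after PBS and 45.9% after OX40L-JAG1), at Tank, at Maf and beside Tnfsf9, the gene of the 4-1BB ligand. The 3 higher runs of 3 windows all lay in Satb1 and Lef1.

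A gene was given the windows that overlap it or the 5 kb on either side. Exons and introns were not told apart, since the gene table gives no exons. Of 20948 protein-coding genes with a window, 1471 (7.02%) had a lower window and 376 (1.79%) a higher one, with a median of 11 windows per gene. The methylation of a whole gene with its flanks is called its locus value below. Its median difference over 21219 protein-coding genes was -2.77 points, with 5% of genes below -7.58 and 5% above 1.88, and 86.6% of genes lay below 0. It carries a counting interval and no test. Counts for a list are read against these shares, and longer genes had more windows in which to be called. Calls also varied with level, and the lists were not matched for it. Windows at 20 to 40% in PBS Treg were lower in 1.59% of cases and higher in 1.05%. At 80 to 90% in PBS Treg the shares were 0.420% and 0.0276%. The lists were drawn up with earlier results of these libraries known, so they are descriptions.

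**Figure D3:**
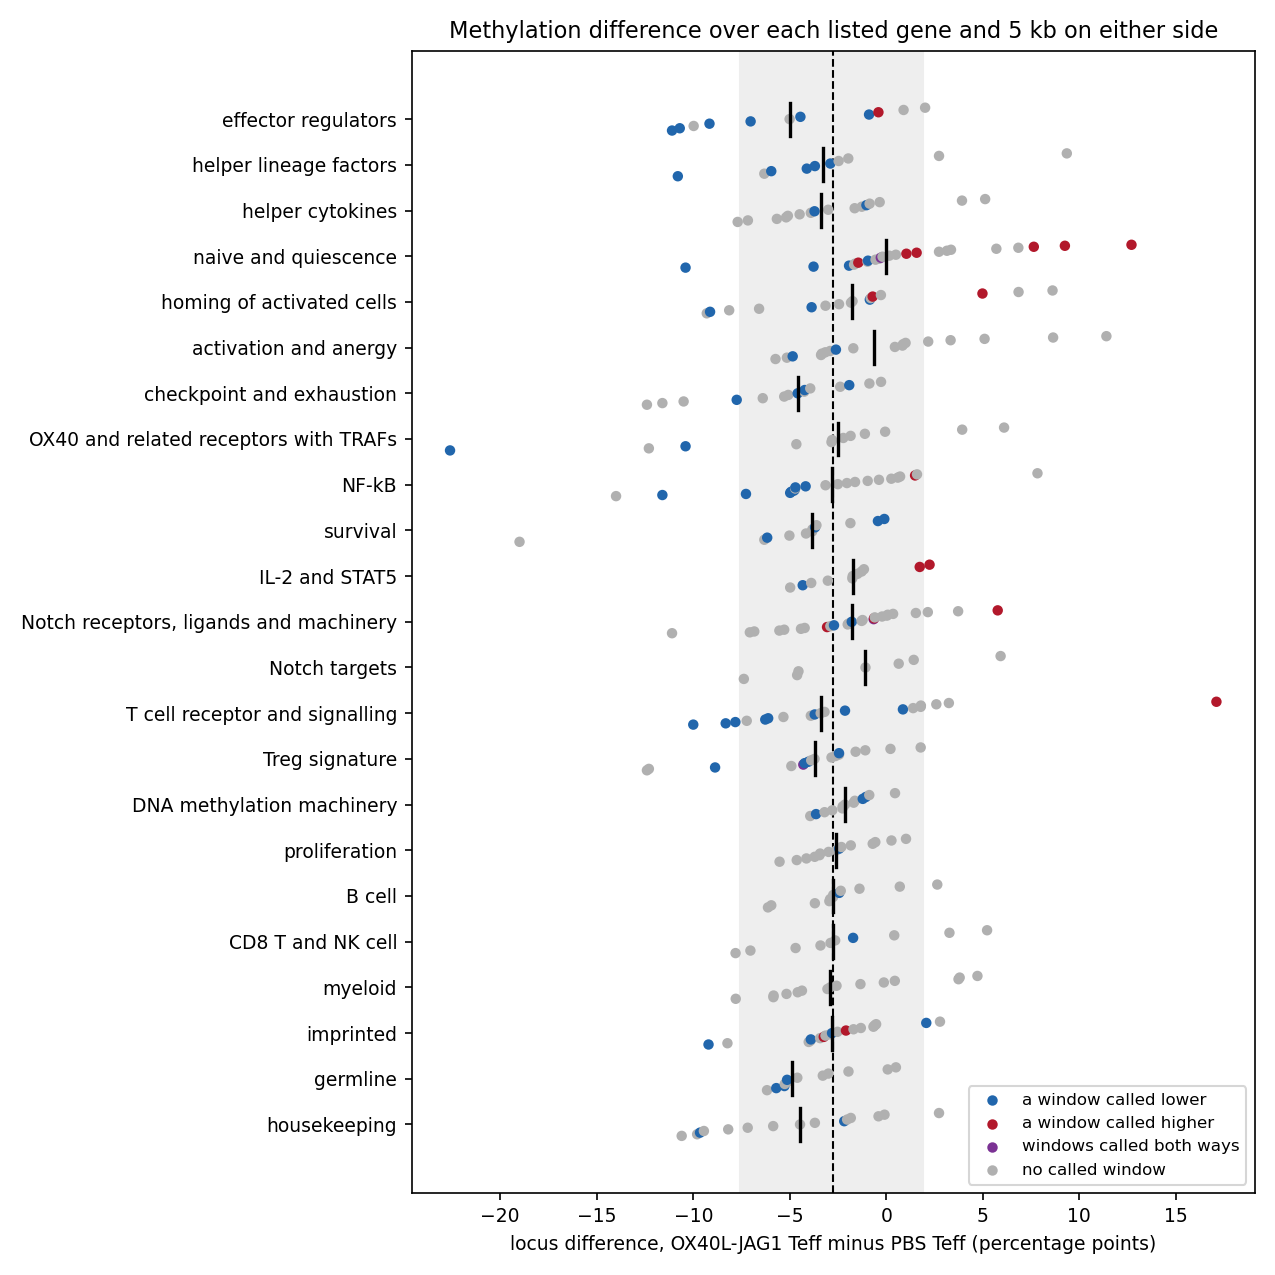
Locus difference (OX40L-JAG1 Teff minus PBS Teff, percentage points) of each gene in 23 lists, 1 point per gene, coloured by whether a window of the gene was called. Black bars mark list medians, the dashed line the median of all protein-coding genes (-2.77) and the grey band their 5th to 95th percentile. The naive list reaches farthest to the right of the band apart from Cd3e, and Tnfrsf4 lies farthest to the left.

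Genes of naive and quiescent T cells formed the list with the most higher windows, 26. Of 24 genes, 7 had a higher window and 5 a lower one, and 2.26% of the list's 1149 windows were higher against 0.0567% of all windows. The list's loci had a median level of 67.2% in PBS Teff, and its windows were not compared with others of like level. Lower windows made up 1.22% of the list's windows against 0.362% of all. Lef1 and Satb1 held 10 higher windows each, and the smaller IL-2 and STAT5 list had a higher share of higher windows, 2.70%. The list's median locus difference was -0.0221 points, above the -2.77 of all genes. Lef1, a transcription factor that with TCF1 keeps naive cells and stem-like memory cells, had 10 of its 73 windows higher and none lower. Over 742 positions its locus stood at 53.4% after PBS and 66.1% after OX40L-JAG1, a difference of 12.7 points (11.2 to 14.2). The called windows lay between 5.2 and 81.2 kb inside the gene. At chr3:131120001-131121000 the level was 8.57% of 35 reads after PBS and 62.5% of 32 reads after OX40L-JAG1 (adjusted p = 0.00221, Fisher's exact test). At the most deeply read called window, chr3:131123001-131124000, it was 38.2% of 586 reads and 64.8% of 512 reads (adjusted p = 2.42e-14, Fisher's exact test).

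Satb1, a chromatin organiser of T cells, had 10 of 72 windows higher and none lower. Its locus stood at 55.7% and 65%, a difference of 9.25 points (7.74 to 10.8). Of its called windows, 9 lay between 7.8 and 32.8 kb from the start and the other one 97.8 kb away, past the gene's end. These windows were close to unmethylated in PBS Teff, from 0% to 15.3%, and stood between 24.6% and 61.1% in OX40L-JAG1 Teff. At chr17:51804001-51805000 the level was 15.3% of 111 reads after PBS and 61.1% of 72 reads after OX40L-JAG1. Tcf7, which encodes TCF1, was at 7.81% of 269 reads and 28.8% of 191 reads at chr11:52271001-52272000 (adjusted p = 7.15e-06, Fisher's exact test), and its locus difference was 7.64 points (3.91 to 11.4). The windows of Satb1 and Tcf7 printed here kept the call with spaced positions. With those positions, 1 of the 10 Lef1 windows and 1 of the 10 Satb1 windows passed.

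The other higher naive genes were Ets1, Btg1, Txk and Bach2. Ets1, a T cell transcription factor, stood at 17.3% of 371 reads and 40.6% of 345 reads. Bach2, a repressor that holds back effector programmes, differed in both directions along its length. At chr4:32405001-32406000, 167.1 kb inside the gene, 84.7% of 118 reads were methylated after PBS and 9.76% of 123 reads after OX40L-JAG1. This difference of -75.0 points (-81.7 to -65.0) was the largest of all lower windows, and it kept the call with spaced positions. The window rested on 18 positions of 5 to 9 reads each. At chr4:32410001-32411000, 5 kb further on, 52.7% of 55 reads and 89.9% of 69 reads were methylated. Bach2 had 5 lower and 2 higher windows of 209, and its locus value hardly moved, with a difference of -0.284 points (-0.978 to 0.409). Lower in the list were also Themis, a thymocyte signalling gene with 5 lower windows, Foxp1, Slfn2 and Bcl11b.

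**Figure D4:**
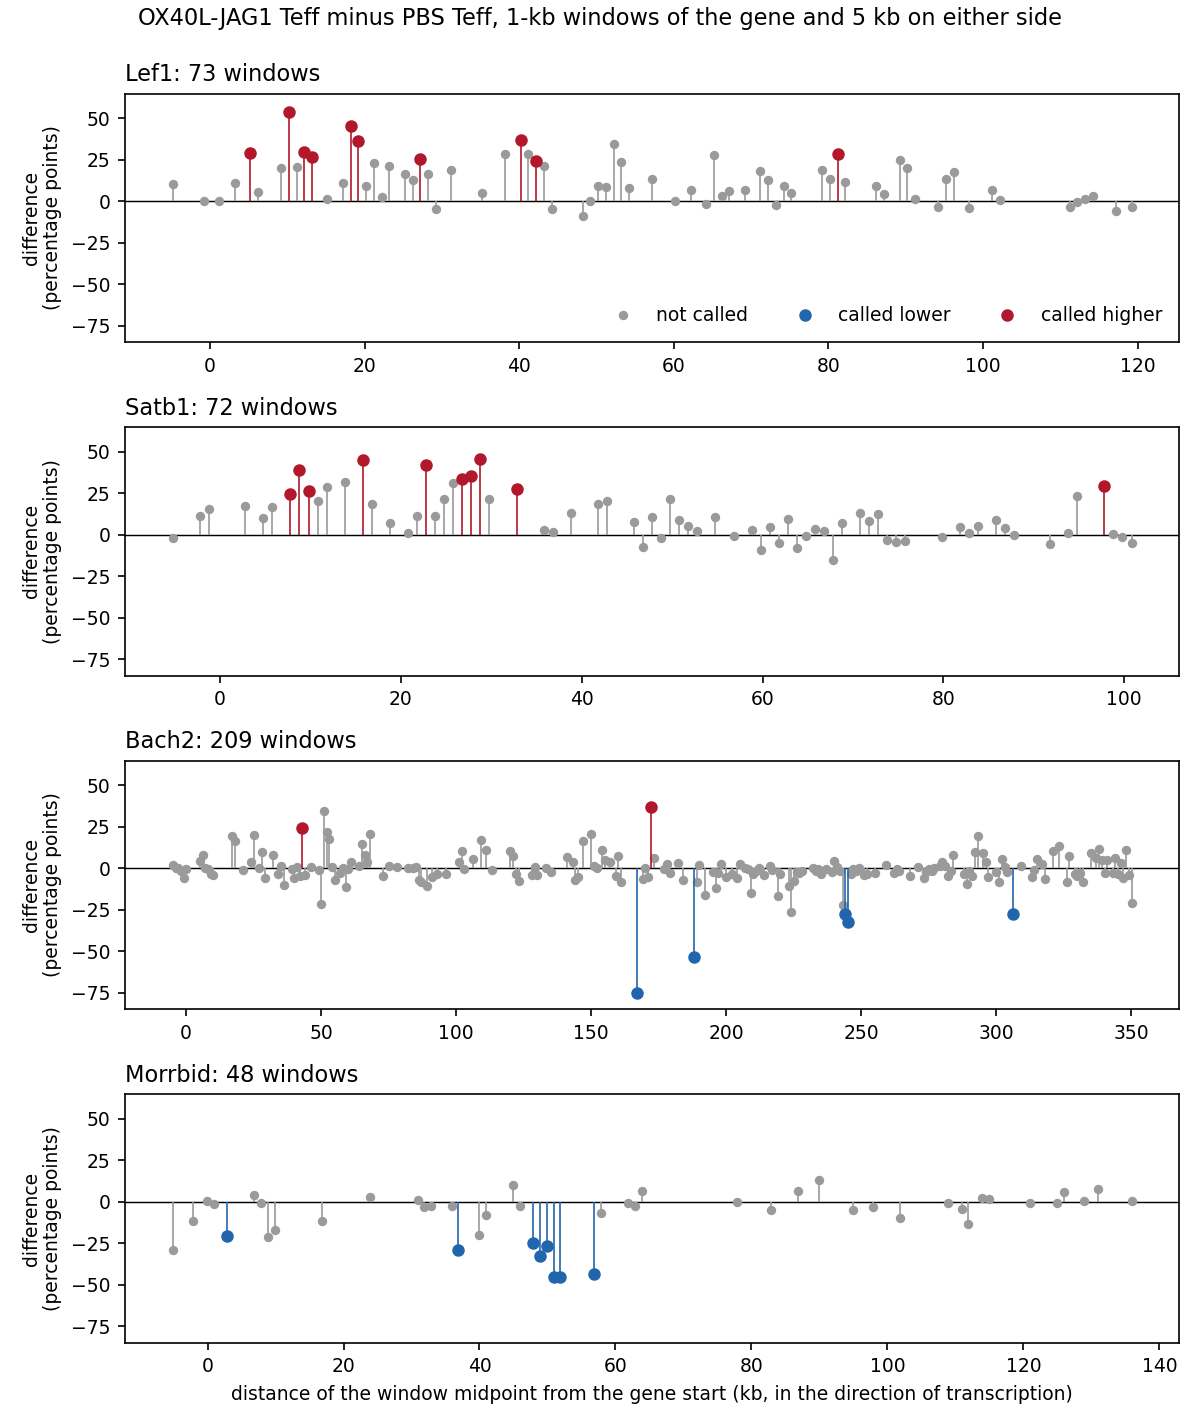
Difference of each 1-kb window (OX40L-JAG1 Teff minus PBS Teff, percentage points) against distance from the gene start (kb) for Lef1, Satb1, Bach2 and Morrbid, with 1 point per window and called windows in colour. Lef1 and Satb1 have 10 called windows each, all above 0, Bach2 has 5 below and 2 above, and 8 Morrbid windows are called lower.

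Of 11 effector regulators, 6 had a lower window and 1 a higher one. Of their windows 4.27% were lower, against 0.362% of all, 1.27% in the housekeeping list and 1.90% in the germline list. Their median locus difference was -5.01 points, beside -4.87 for germline and -4.47 for housekeeping genes. Batf, an AP-1 family factor of effector cells, was at 76.3% of 76 reads after PBS and 33.3% of 63 reads after OX40L-JAG1 at chr12:85696001-85697000, and its locus difference was -10.7 points (-13.2 to -8.21). Maf, which drives IL-10 and follicular helper genes, had 3 adjoining lower windows, the deepest at 82.1% of 368 reads and 54.9% of 350 reads (adjusted p = 2.73e-11, Fisher's exact test). Nfil3, a basic leucine zipper factor, was at 87.3% and 51.8%, and its locus difference was -11.1 points (-15.4 to -6.76). Prdm1, which encodes Blimp-1, had 2 lower windows, and the one printed lay beyond the end of the gene, 96.1 kb from its start, at 90.7% of 335 reads and 42.8% of 159 reads, and kept the call with spaced positions. Irf4 and Zeb2 were lower as well. Runx3, a factor of cytotoxic and Th1 cells, was the higher one, at 56.4% and 78.2%, and it also kept the call. Bhlhe40 had no called window and its locus difference was -9.98 points (-14.3 to -5.62).

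Of 10 helper lineage factors, 5 had a lower window and none a higher one. The list's windows were lower in 2.05% of cases, against 0.362% of all and 1.90% in the germline list. A gene of the list had a median of 20.5 windows, against 11 for all protein-coding genes. Tbx21, the Th1 factor T-bet, had 2 lower windows, with 96.6% of 59 reads after PBS and 68.1% of 47 reads after OX40L-JAG1 at chr11:97113001-97114000, and its locus difference was -10.8 points (-13.8 to -7.83). Gata3, the Th2 factor, was at 70.9% and 39.5%. Stat4, which relays IL-12, was at 85.3% and 44.6%, Rora at 90% and 45.9%, and Ahr at 81.9% of 321 reads and 59.1% of 286 reads. The Ahr call was kept with spaced positions and lost after centring, where the difference was -19.9 points. Bcl6, the follicular helper factor that Blimp-1 opposes, had no called window, and its locus stood at 48.2% and 57.6%, a difference of 9.35 points (6.96 to 11.7). Among 16 helper cytokine genes, Il4 and Il21 had a lower window, and 1.89% of the list's windows were lower. Il21 was at 95% of 40 reads and 57.1% of 42 reads, and Il4 at 95.7% of 93 reads and 68.5% of 73 reads. Ifng had no called window, and its locus difference was -7.70 points (-11.6 to -3.86). Its promoter region of 300 bases was at 22.2% and 33.8%, a difference of 11.6 points (-4.75 to 26.7) that was not called.

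T cell receptor and signalling genes were called lower in 8 of 19 cases and higher in 1. Lower windows made up 2.95% of the list's windows, against 0.362% of all and 1.90% in the germline list. Its loci had a median level of 58.2% in PBS Teff. Of all windows at 40 to 60% in PBS Treg, 1.35% were called lower. Zap70, the kinase recruited to the activated receptor, was at 86.3% of 73 reads after PBS and 26.2% of 65 reads after OX40L-JAG1, 6.70 kb inside the gene at chr1:36768001-36769000. The difference was -60.1 points (-71.1 to -44.9) and kept the call with spaced positions. So did Ptpn22, a phosphatase that restrains the receptor, at 86.1% of 251 reads and 51.5% of 235 reads. Cd247, the zeta chain, was at 87.8% and 46.4%, and Cd5 at 87.7% and 54.1%. Lcp2, Cd28, Cd6 and Ptprc were the other lower genes. Cd3e, a chain of the receptor complex, was higher in a deeply read window, chr9:44999001-45000000, at 15.6% of 1089 reads and 40.5% of 883 reads (adjusted p = 1.67e-30, Fisher's exact test). Its locus difference of 17.1 points (13.7 to 20.5) was the highest of the 23 lists.

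Of 15 checkpoint and exhaustion genes, 4 had a lower window and none a higher one. The list's windows were lower in 2.39% of cases, against 0.362% of all and 1.90% in the germline list. All 15 genes had a locus difference below 0, as did 86.6% of all genes and 14 of 15 housekeeping genes. Their median of -4.59 points stood beside -4.47 for the housekeeping list. Cd274, which encodes PD-L1, was at 93.8% of 225 reads after PBS and 63.5% of 222 reads after OX40L-JAG1 (adjusted p = 9.02e-12, Fisher's exact test) and kept the call with spaced positions. Tox, a factor of exhausted cells, had 6 lower windows of 163. Havcr2, which encodes TIM-3, was at 86.5% and 55.7%, and the Tigit window also lies in Zbtb20. Ctla4 and Pdcd1 had no called window, and their locus differences were -12.4 (-17.1 to -7.71) and -10.5 points (-16.2 to -4.88).

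The receptor of the given ligand was lower before its start. Tnfrsf4, which encodes OX40, was at 81.8% of 55 reads after PBS and 38.6% of 44 reads after OX40L-JAG1 at chr4:156010001-156011000, before the start of the gene, a window that also lies by Sdf4 (adjusted p = 0.00562, Fisher's exact test). The next windows towards the start were at 86.2% and 62.1%, and at 34.1% and 13.5%, and were not called. Over 43 positions the Tnfrsf4 locus difference was -22.6 points (-29.6 to -15.3), the farthest of the 23 lists. The called window did not keep its call with spaced positions. Of the 12 genes for OX40, related receptors and TRAF adaptors, Traf1 was the only other one with a called window, at all of 30 reads and 66.7% of 39 reads. In that list 1.26% of windows were lower, against 0.362% of all and 1.27% in the housekeeping list. Tnfsf4, the gene of OX40L itself, was at 86.2% and 83.9% over its locus.

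In the NF-kB pathway 8 of 22 genes had a lower window and 1 a higher one. Of the list's windows 3.03% were lower, against 0.362% of all, 1.27% in the housekeeping list and 1.90% in the germline list. Nfkb1, which encodes p50, had 4 lower windows, the one printed at 91.6% of 143 reads after PBS and 54.1% of 122 reads after OX40L-JAG1. Rel, the c-Rel subunit, was at 87.2% and 38.7%. Tnfaip3, which encodes the inhibitor A20, was at 72.7% of 44 reads and 20% of 45 reads, and its partner Tnip1 at 67.6% and 34.2%. Tank, a TRAF binding gene, had 3 lower windows, with 86.9% and 49.5% in the one printed. Nfkbiz, Birc2 and Malt1 were lower too. Nfkbia, the inhibitor IkB-alpha, had no called window, and its locus difference was -14 points (-21.3 to -6.44). No printed window of this list kept its call with spaced positions.

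Of 12 survival genes, 4 had a lower window and none a higher one. The list's windows were lower in 4.63% of cases, against 0.362% of all and 1.90% in the germline list. Morrbid alone held 8 of the list's 12 lower windows. All 12 genes had a locus difference below 0, where 86.6% of all genes lay, with a median of -3.84 points beside -4.47 for housekeeping genes. Morrbid, a long noncoding RNA that controls the neighbouring Bcl2l11, had 8 lower windows of 48, of which 6 lay between 47.9 and 56.9 kb from its start. At chr2:128377001-128378000 the level was 80.6% of 103 reads after PBS and 35.5% of 138 reads after OX40L-JAG1 (adjusted p = 9.34e-09, Fisher's exact test). None of the 8 kept the call with spaced positions. Bcl2 was at 73.2% and 23.1%, the death receptor gene Fas at 91.2% and 46.3%, and Cflar at 69.1% and 30.8%. Bcl2a1b had no called window, and its locus difference was -19 points (-25.5 to -12.2).

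Of 27 Notch receptors, ligands and machinery genes, 3 had a lower window and 4 a higher one. Of their windows 0.542% were lower, against 0.362% of all, and 0.434% higher, against 0.0567% of all. Notch1 was higher 3.68 kb upstream, at 5.26% of 95 reads after PBS and 29.6% of 71 reads after OX40L-JAG1. Notch2 was at 34.3% of 35 reads and 76.3% of 38 reads, and the Notch4 window, at 3.80% and 26.9%, is shared with neighbouring genes. Rbpj, the DNA-binding partner of Notch, was lower at 90.8% and 68.1%. Maml2, a Mastermind coactivator, had windows in both directions and Maml3 was lower. None of 7 Notch target genes had a called window, and their locus differences ran from -7.38 points in Hes5 to 5.92 in Nrarp. The list's windows numbered 37, so few could be tested.

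Among 11 genes of IL-2 signalling, Stat5b and Jak1 were higher and Il2rb lower. Stat5b, a transcription factor that relays IL-2 and IL-7, had 3 higher windows between 30.5 and 40.5 kb from its start. At chr11:100818001-100819000 none of 34 reads was methylated in PBS Teff, and 58.8% of 34 reads were in OX40L-JAG1 Teff. The 34 PBS counts come from 6 nearby positions with 5 or 6 reads each, which can be the same molecules. Independent reads would allow a level of up to 8.82%, and fewer molecules allow a higher one. At the 2 others the levels were 25.6% and 63.5%, and 38.0% of 205 reads and 69.5% of 151 reads. Il2rb, the beta chain of the IL-2 receptor, was at 73.0% and 34.0%. Il2ra, which encodes CD25, had no called window in 31.

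Of 13 DNA methylation genes, Tet3, Tet2 and Mbd2 had a lower window and none had a higher one. Lower windows made up 1.85% of the list's windows, beside 0.362% of all and 1.90% in the germline list. Tet3, an enzyme that oxidises methylcytosine, was at 72.2% of 36 reads after PBS and 2.22% of 45 reads after OX40L-JAG1 at chr6:83441001-83442000. This was among the largest differences, -70.0 points (-82.1 to -51.3), on 7 positions. The methyltransferase genes Dnmt1, Dnmt3a and Dnmt3b had no called window, and their locus differences were -2.27, -0.883 and 0.451 points. Of 16 homing genes, Ccr4, Itgb1 and Cd44 were lower and Ccr9 and Itga4 higher. In that list 1.90% of windows were lower and 1.43% higher, against 0.362% and 0.0567% of all. Ccr9, the gut homing receptor of naive and gut-tropic cells, was at 19.3% and 65.8%. Of 18 activation and anergy genes, the ubiquitin ligase genes Cblb and Rnf128 were lower, with Cblb at 45.0% of 120 reads and 8.16% of 98 reads. Ccnd2 was the only one of 15 proliferation genes with a called window, and 0.391% of the list's windows were lower.

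Marker lists were used to check the sorted cells. The 19 T cell receptor and signalling genes had a median locus level of 58.2% in PBS Teff, from 32.7% to 82.6%, with Cd3d at 39.9% and the sort marker Cd4 at 65.5%. The median was 80.9% for myeloid genes, 81.6% for B cell genes and 83.8% for genes of CD8 T and NK cells. Notch target genes stood at 57.6%, so a low median was not particular to T cell genes. The ranges overlapped: B cell genes began at 60.8% in Pax5, CD8 T and NK cell genes at 60.5% in Nkg7, and myeloid genes at 24.4% in Fcgr3. The Foxp3 locus, which Treg cells demethylate in part, was at 82.4% after PBS and 78.7% after OX40L-JAG1, a difference of -3.72 points (-6.83 to -0.636). Of 17 Treg signature genes, 5 had a lower window and 1 a higher one, with a median locus difference of -3.72 points. Lower windows made up 1.84% of that list's windows, against 0.362% of all and 1.90% in the germline list. Cd83, a gene of activated cells in that list, was at 91.3% of 564 reads and 71.3% of 446 reads. It kept the call with spaced positions and lost it after centring, where the difference was -17.1 points. B cell genes were called in 1 of 12 cases (Pax5, lower), CD8 T and NK cell genes in 1 of 10 (Gzma, lower) and myeloid genes in none of 15. Median locus differences of these 3 lists were -2.75, -2.77 and -2.91 points, beside -2.77 for all genes. The part of other cell types in the differences was not tested.

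Lists that have no known role in T cell effector function gave a reference. Housekeeping genes had a lower window in 2 of 15 cases and a median locus difference of -4.47 points, and germline genes one in 3 of 11 and a median of -4.87. Among all protein-coding genes 7.02% had a lower window. Of list windows, 1.27% (housekeeping), 1.90% (germline) and 1.07% (imprinted) were lower, against 0.362% of all. Of 19 imprinted genes, 4 had a lower window and 2 a higher one. Peg3 was at 51.2% of 82 reads and 81.9% of 127 reads in a window it shares with Usp29. Genes outside T cell function thus held lower windows too.

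Outside the lists, the lower windows with the farthest intervals lay in Kif14, Clhc1, Dock2, Inpp4b and Cpsf2, besides Bach2, Tet3 and Zap70. Dock2, which drives the migration of lymphocytes, was at 95.9% of 193 reads after PBS and 44.0% of 166 reads after OX40L-JAG1 at chr11:34506001-34507000 (adjusted p = 2.43e-25, Fisher's exact test). Inpp4b, a phosphoinositide phosphatase gene, was at 88.2% of 93 reads and 30.5% of 59 reads. Both kept the call with spaced positions. Kif14, a kinesin of cell division, was at 94.9% of 39 reads and 22.2% of 27 reads. Genes with the most lower windows were Morrbid, Itpr1 and Zbtb20 with 8 each, Cd226 and Fyn with 7, and Tox, Asap1 and Ptprd with 6. Zbtb20, a repressor of the BTB family, held 411 windows and Ptprd, a phosphatase gene, 991. Cd226, a costimulatory receptor and a diabetes risk gene, had 7 of 37 windows lower, between 57.4% and 98.0% after PBS and between 27.5% and 67.1% after OX40L-JAG1. Fyn, a Src kinase of the receptor, was at 81.0% of 84 reads and 29.5% of 78 reads in the window that kept its call with spaced positions.

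The higher windows with the farthest intervals lay in Ptk2b, Pdlim5, Slc35d3, Runx2, Stat5b, Prdm10 and a window shared by Cdk11b and Mib2. Ptk2b, the kinase PYK2, was at 5% of 40 reads after PBS and 73.1% of 52 reads after OX40L-JAG1 at chr14:66213001-66214000, a call kept with spaced positions. Elsewhere in the same gene, at chr14:66251001-66252000, the order was the other way, with 92.0% of 890 reads and 52.9% of 700 reads (adjusted p = 7.45e-68, Fisher's exact test). Runx2, a Runt family factor, was at 24.4% of 78 reads and 80% of 55 reads and kept the call. Sypl had 4 higher windows of 17, and Cnot2 and Atp1b3 had 3 each.

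The gene of miR-21a, a microRNA of activated lymphocytes, was chosen after its values were seen, because a called window holds its hairpin. RefSeq gives these mature sequences, with the seed, bases 2 to 8, in capitals.
mmu-miR-21a-5p: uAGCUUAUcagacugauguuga
mmu-miR-21a-3p: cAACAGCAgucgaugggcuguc
The window with the hairpin, chr11:86584001-86585000, was at 60.2% of 103 reads after PBS and 27.8% of 108 reads after OX40L-JAG1 (adjusted p = 0.00120, Fisher's exact test). The adjoining window, which like this one lies by Vmp1, was at 86.9% of 61 reads and 45.8% of 48 reads. The next 3 windows towards higher coordinates were at or below 4.86% in both libraries. Neither called window kept its call with spaced positions.

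The windows called in Teff were then looked up in the Treg pair, which did not choose them. Of the 3472 lower windows, 1460 were measured there, and 81.0% of these were lower in OX40L-JAG1 Treg than in PBS Treg, against 67.1% of all windows in both pairs. Their median Treg difference was -8.42 points, against -2.17 for all. Of the 544 higher windows, 293 were measured, 80.5% of them were higher in OX40L-JAG1 Treg, against 31.7% of all, and their median Treg difference was 8.13 points. By the calling rule applied to the Treg pair, 53 of the 1460 were lower, or 3.63%, beside 0.064% of all windows in both pairs. Of the 293, 18 were higher, or 6.14%, beside 0.0156% of all. The direction of the Teff difference was thus seen in most of the same windows in the Treg libraries. Over the same 1460 windows the median levels were 87.6% and 60.8% in the Teff libraries and 78.5% and 68.8% in the Treg libraries, PBS first. Over the 293 they were 31.8% and 60.5% in Teff and 54.5% and 63.4% in Treg. The Teff levels had chosen the windows.

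**Figure D5:**
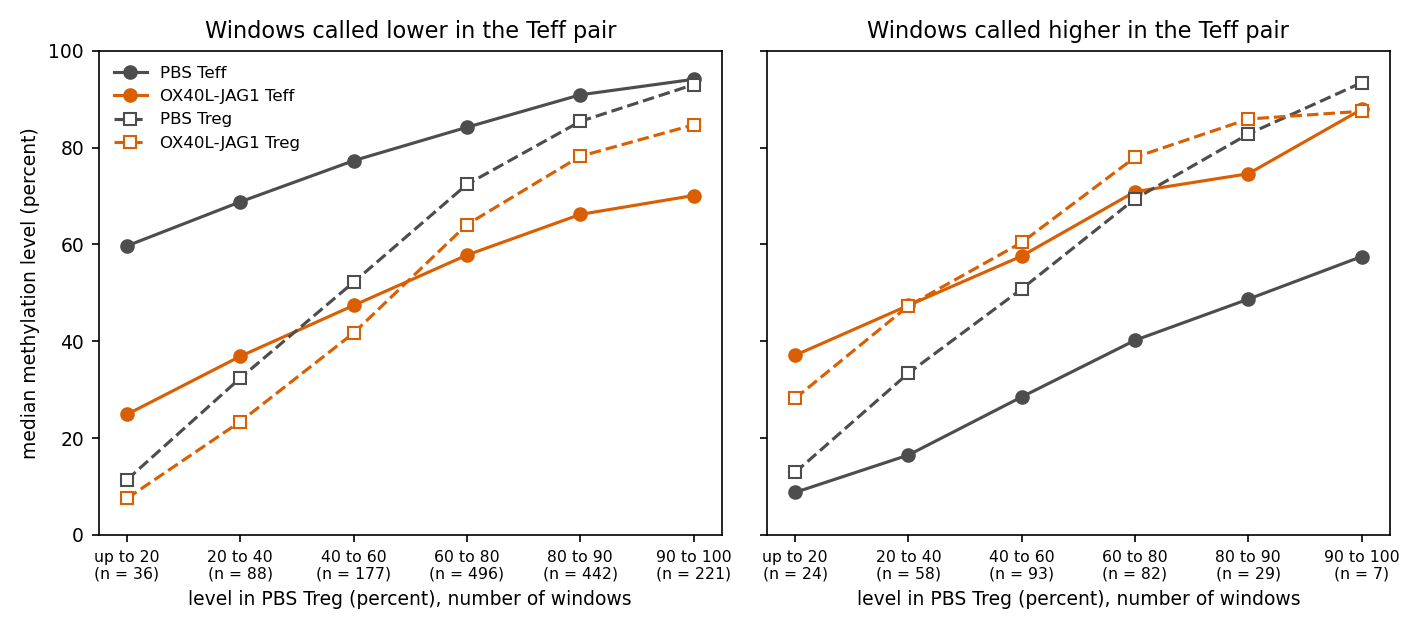
Median methylation level (percent) in the 4 libraries at windows called lower (left) or higher (right) in the Teff pair, by the level in PBS Treg, which also enters the Treg difference. Filled circles are Teff and open squares Treg, grey is PBS and orange OX40L-JAG1. The OX40L-JAG1 Treg medians lie on the side of the Teff difference in every class but the highest class of the higher windows (7 windows).

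At named genes the Treg values varied. Nfil3 was at 38.8% after PBS and 5.45% after OX40L-JAG1 in Treg, Tank at 54.4% and 13.9%, and Maf at 58.5% and 38.3%, each called lower in the Treg pair as well. Cd83 and the germline gene Mael were called lower in both pairs too. Tcf7 was at 41.5% and 67.8%, Ets1 at 11% and 35.2%, and both higher Bach2 windows rose, the one above from 65.9% to all reads. At Lef1 the 6 windows measured in Treg were already at 60.6% to 97.1% in PBS Treg, and their median Treg difference was 2.64 points. At Satb1, 4 windows were measured, between 39.7% and 57.0% in PBS Treg, and all 4 were higher in OX40L-JAG1 Treg, with a median difference of 12.7 points. Kif14 was at 37.2% after PBS and 33.3% after OX40L-JAG1 in Treg. Whether the Teff and Treg differences differed was tested by an interaction term on the log odds of methylation (Wald, 0.5 added to every count, Benjamini-Hochberg adjustment over the 391982 windows), and 57 windows passed. Of the windows printed here, Prdm1, Pdlim5, Cd3e and the lower Ptk2b window were among them.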

How the data were processed

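Whole-genome bisulfite sequencing, in which unmethylated cytosines are read as thymine, was deposited as 1 table for 4 libraries. Per the file headers, the authors gave for each cytosine position and library a count of reads, a count of methylated reads and a level, which is headed as a percentage. The deposited level is a fraction from 0 to 1 and equals methylated counts over counts. Every nonzero read count in it is at least 5. Trimmomatic, Bismark and the mm10 build are named per the submitters' processing notes, and the sources used here give neither their versions nor the read minimum or duplicate removal.

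The 2 Teff columns were filtered at 5 reads, and counts were summed in 1-kb windows of at least 5 positions. Fisher's exact test with Benjamini-Hochberg adjustment was run in Python 3.11.15 with scipy 1.17.1, numpy 2.4.6, pandas 2.3.3 and numba 0.67.0. The test was checked on simulated data. Intervals are Wilson (levels) and Newcombe (differences) at 95%. They and the limit for a count of 0, set at 3 counts, cover counting error only and take reads as independent. Libraries listed 208402911 reads (PBS Teff) and 159291553 (OX40L-JAG1 Teff), with medians of 9 and 8 reads at a kept position. Genes and promoters came from RefSeq tables on GRCm38.p6, matched by symbol and position. Named genes were list genes with a called window, the 8 genes each way ranked by the nearer interval bound and the 8 each way with the most called windows. Predicted gene models were left out. The window printed is the called one whose nearer bound lies farthest from 0, unless another is described. The members and lists were chosen with earlier results of these data known. Values of 2 list genes are not reported here, and the list counts include them.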

Additional observations from a re-analysis of the deposited data

Results flagged for a closer look

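At 4 of the windows described, the difference in the Teff pair was itself different from that in the Treg pair, by the interaction term of a binomial model of the read counts with Benjamini-Hochberg adjustment, on 1 library per group. The lower Ptk2b window fell from 92.0% to 52.9% in Teff and was at 73.6% and 65% in Treg (binomial model, adjusted p = 1.15e-17). The Prdm1 window fell from 90.7% to 42.8% in Teff and was at 72.7% and 54.9% in Treg (binomial model, adjusted p = 5.64e-04). The Pdlim5 window rose from 33.3% to 91.2% in Teff and was at 91.0% and 84.0% in Treg (binomial model, adjusted p = 0.00773). The Cd3e window rose from 15.6% to 40.5% in Teff and was at 38.5% and 53.3% in Treg (binomial model, adjusted p = 0.0266). The reads behind these p-values share molecules across positions, which makes them too small.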

How the results depend on the processing

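The lower methylation of OX40L-JAG1 Teff and the excess of lower over higher windows were seen under each alternative run, while the counts moved. That excess is in part set by the high level of most windows under every setting, so its return is no separate evidence. Counts are given as lower and higher, then lower and higher after centring on the median window. They were 635, 140, 378 and 209 with 10 reads at a position, 1479, 278, 969 and 352 with positions read in all 4 libraries, and 814, 263, 606 and 320 with 10 positions in a window. Read counts divided by 3 gave 50, 14, 44 and 15, the upper strand alone 46, 6, 38 and 6, and the lower strand alone 44, 5, 40 and 6. A threshold of 30 points gave 1188, 244, 788 and 338, and one of 10 points 8483 lower windows, or 6653 centred. One position in each 200 bases, chosen after seeing the data, gave 628, 69, 459 and 76.

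The pooled difference was -3.58 points with positions of all 4 libraries, -3.55 with PBS Teff thinned, -3.47 and -3.28 on the upper and lower strand, -3.77 without very deep positions, -3.50 on autosomes and -4.29 with spaced positions. In the same order of settings, without the deep positions, the median window stood at -2.82, -2.94, -2.65, -2.58, -2.91 and -3.10. It was -2.72 with 10 reads, -2.25 with 10 positions, -3.21 with 3 positions and -3.40 in 2-kb windows. In the Treg pair, alternatives added after seeing the data gave medians at the lower and higher windows of -8.51 and 6.81 (10 reads), -10.6 and 5.28 (10 positions), -7.56 and 7.88 (shifted windows) and -8.50 and 8.23 (autosomes). The median gene locus was -2.75 with 10 reads and -2.72 on autosomes.

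Of 115 named windows, 4 were called under every alternative that held them. For windows shifted by 500 bases, only the one with the first 500 bases of a named window was read, so its value does not describe the whole named window. It was -0.0643 at the higher Bach2 window, 13.1 at Cblb, 2.70 at Cd28 and 0.126 at Clhc1. It was -1.89 at the higher Ikzf2 window, -16.2 at Runx2, 4.30 at Tet2 and 1.08 at Tigit. The 2-kb windows gave 6.19 at Maml3. The cause was not tested. No paired analysis was possible because each group has 1 library. Median depths of 76 and 65 reads limit single windows.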

Other observations

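Plac8, a gene of effector and memory T cells among other cells, held a run of 2 higher windows, chr5:100570001-100572000, with Teff medians of 9.49% after PBS and 51.4% after OX40L-JAG1. Tagap, a GTPase-activating gene of activated T cells, held a run of 2 lower windows at 58.0% and 22.2%. A lower run of 4 windows, chr17:86850001-86854000, lay in no gene, at 87.1% and 59.6%.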
